A study of Mus musculus with 24 samples.

Results

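The 10 genes described here belong to the oxidative stress response or encode metallothioneins: Nfe2l2, Nqo1, Hmox1, Gclc, Gclm, Txnrd1, Srxn1, Mt1, Mt2 and Gpx1. All probe sets annotated to 1 of these symbols and to no other were taken, which gave 19 probe sets for 10 genes, of 45101 probe sets and 18193 genes in all. Comparisons rest on the brightest probe set of a gene, judged by its mean of 24 arrays, and the other 9 probe sets were described separately. Values are log2 signals, so a difference of 1 is a doubling. Levels of different probe sets were not read as relative amounts of RNA, because each probe set has its own brightness. The words bright and dim describe the signal of a probe set only.

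Forebrain RNA was measured on Affymetrix arrays in 6 groups of 4 mice, with 1 array per mouse and 24 arrays in all. The groups were TgCRND8 mice at 70, 80 and 150 days of age and their wild-type littermate controls at the same ages. TgCRND8 mice carry an APPSwe/Ind transgene, a human amyloid precursor protein gene with the Swedish and Indiana mutations, and its expression in this line is driven by a hamster prion protein promoter. The forebrain was dissected away from the olfactory bulb, the cerebellum and the brainstem.

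Cells meet oxidants and reactive chemicals with a shared transcriptional programme. NRF2, the transcription factor encoded by Nfe2l2, is held at a low level by KEAP1, escapes degradation when KEAP1 is modified by electrophiles, and binds antioxidant response elements of genes for glutathione synthesis, quinone reduction, heme breakdown and thioredoxin recycling. Metallothioneins are small cysteine-rich proteins that bind zinc and copper and are induced by metals through the factor MTF1, and also by glucocorticoids and oxidants. In brain, Mt1 and Mt2 are expressed mostly by astrocytes and are known to be induced around amyloid plaques in several mouse models.

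No member passed in any of the 11 comparisons made between genotypes or between ages (limma with Benjamini-Hochberg adjustment over all 18193 genes, adjusted p under 0.05). The lowest adjusted p of a member in any of them was 0.573, for Nfe2l2 in control mice at day 150 against day 70. The number of members measured higher in TgCRND8 forebrain than in controls was 3 of 10 at day 70, 4 of 10 at day 80 and 8 of 10 at day 150. Over all 18193 genes the numbers were 8852, 9253 and 9122 at these ages. The median difference at day 150 was 0.13 log2 for the members and 0.00 over all genes, and Nfe2l2 and Gpx1 had the largest values among the members. In the same arrays at day 150, Gfap, the filament of reactive astrocytes, rose by 1.42 log2 (adjusted p = 2.14e-06 by limma) and Tyrobp, a microglial signalling adaptor, rose by 1.31 (adjusted p = 0.00076 by limma), so changes of that size could pass with these arrays. The largest member difference at that age was 0.33 log2, and these markers do not show whether a change of that size could pass.

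**Figure D1:**
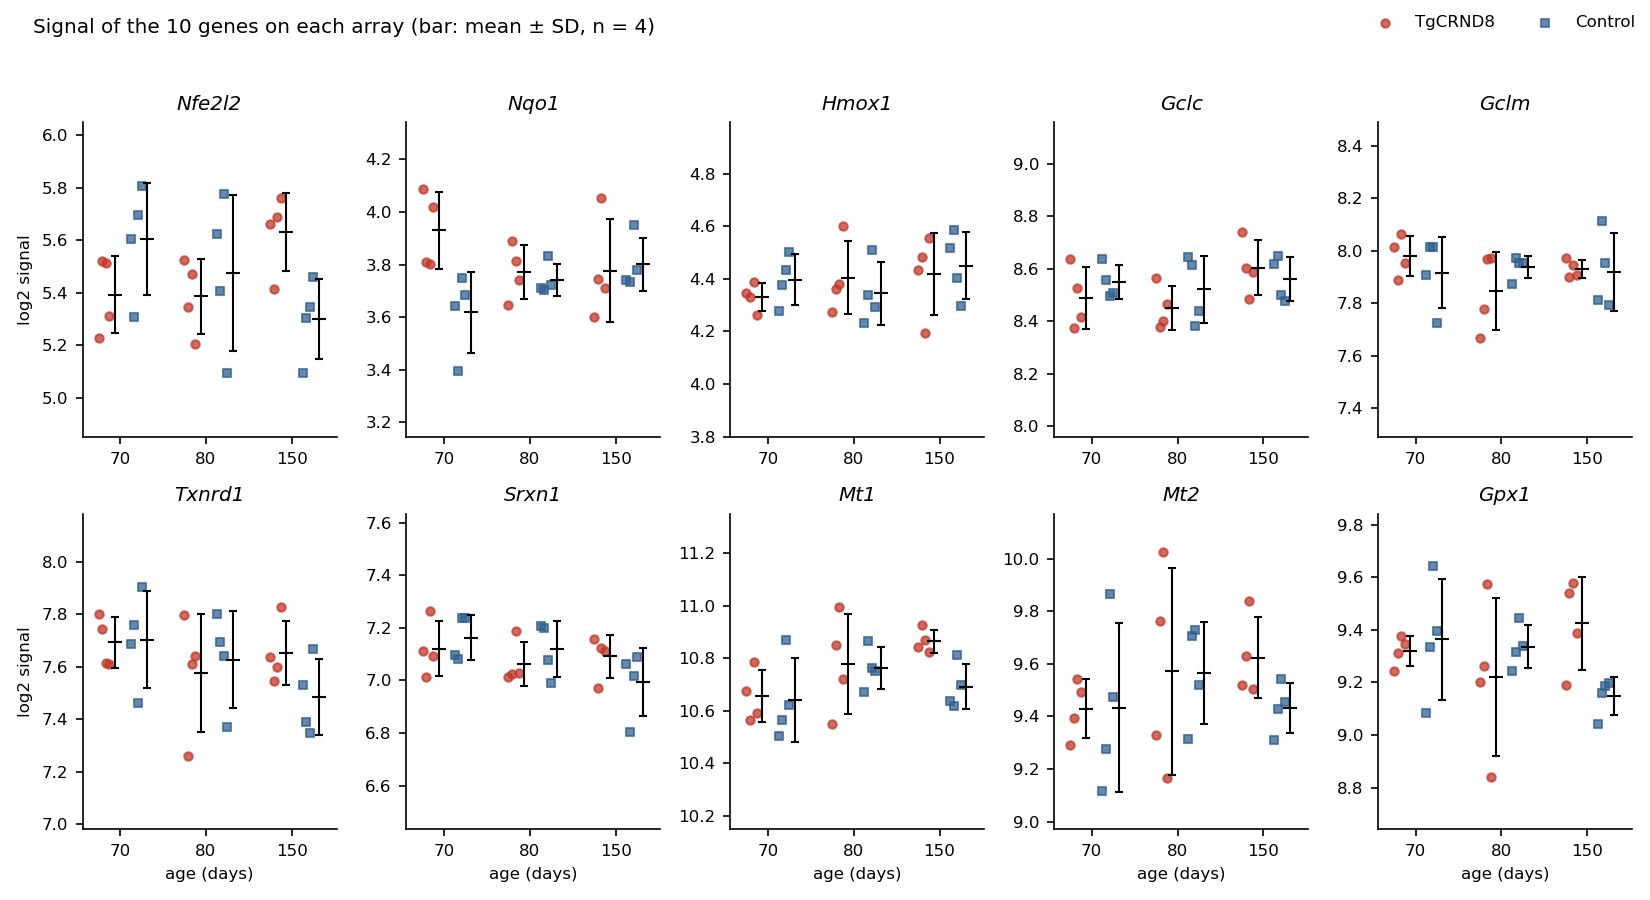
Log2 signal of each of the 10 genes on each of the 24 arrays, with TgCRND8 mice as circles to the left of control mice as squares at each age in days; black bars are the mean ± SD of 4 arrays, and every panel spans the same number of log2 units. Genotypes overlap in every panel and age except Nqo1 at day 70 and Mt1 at day 150, where all 4 TgCRND8 arrays lie above all 4 control arrays.

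Nfe2l2, the gene of the regulator NRF2, lies on chromosome 2 at 75675513 to 75704663 (GRCm38.p6). At day 70 it read 5.23, 5.52, 5.51 and 5.31 in TgCRND8 mice, against 5.61, 5.31, 5.70 and 5.81 in controls. At day 80 it read 5.52, 5.34, 5.47 and 5.21 in TgCRND8 mice, against 5.62, 5.41, 5.78 and 5.09 in controls. The groups overlapped at both of these ages, with the TgCRND8 means lower. The differences were -0.21 at day 70 (95% interval -0.47 to 0.04) and -0.09 at day 80 (95% interval -0.35 to 0.17). At day 150 the gene read 5.66, 5.42, 5.69 and 5.76 in TgCRND8 mice, against 5.10, 5.31, 5.35 and 5.46 in controls. Here only the lowest TgCRND8 array and the highest control array crossed. The mean was 5.63 ± 0.15 in TgCRND8 mice and 5.30 ± 0.15 in controls (SD, n = 4 each), a difference of 0.33 with a 95% interval of 0.07 to 0.59, or 1.26-fold. This did not pass (adjusted p = 0.999 by limma, unadjusted p = 0.014; exact permutation p = 0.0571, two-sided like all exact tests here, n = 4 each).

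The change of the Nfe2l2 genotype difference, day 150 against the mean of days 70 and 80, was tested directly. It was 0.48 log2 (95% interval 0.16 to 0.79) and did not pass (adjusted p = 0.732 by limma, unadjusted p = 0.0043). Of all 18193 genes, 0.0110% passed in that comparison, and 5.75% had an unadjusted p under 0.05, beside 2 of 10 members, Nfe2l2 and Gpx1. By group mean the order of the Nfe2l2 levels was TgCRND8 day 150 at 5.63, control day 70 at 5.61, control day 80 at 5.48, TgCRND8 day 70 at 5.39, TgCRND8 day 80 at 5.39 and control day 150 at 5.30. The ranges of all neighbours in this order overlapped. The second Nfe2l2 probe set, with group means between 2.68 and 2.88, was dimmer than the lower quartiles of the arrays, which were 3.15 to 3.32. Its genotype difference was 0.17 at day 70 (exact permutation p = 0.2, n = 4 each) and 0.05 at day 150 (exact permutation p = 0.714, n = 4 each). With both probe sets averaged, the genotype difference was -0.02 at day 70 and 0.19 at day 150, and its change, day 150 against the mean of days 70 and 80, was 0.21 (adjusted p = 0.877 by limma).

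Nqo1 encodes a quinone reductase that is widely used as a readout of NRF2 activity (chromosome 8, 107388225 to 107403205, GRCm38.p6 as for all positions here). It was dim here, with a mean of 3.77 that lay below the median signal of every array (4.28 to 4.38). At day 70 it read 4.09, 3.81, 3.80 and 4.02 in TgCRND8 mice, against 3.64, 3.40, 3.75 and 3.68 in controls. All 4 TgCRND8 arrays were above all 4 control arrays. The mean was 3.93 ± 0.15 in TgCRND8 mice and 3.62 ± 0.15 in controls (SD, n = 4 each), a difference of 0.31 (95% interval 0.12 to 0.51; 1.24-fold), which did not pass (adjusted p = 0.9997 by limma, unadjusted p = 0.00287). The exact permutation p was 0.0286, the smallest that 4 arrays against 4 can give. Groups did not overlap for 1 of 10 members at day 70 and for 2.36% of all genes. At the later ages the groups overlapped. At day 80 Nqo1 read 3.65 to 3.89 in TgCRND8 mice and 3.70 to 3.83 in controls, a difference of 0.03 (95% interval -0.17 to 0.22). At day 150 it read 3.60 to 4.05 in TgCRND8 mice and 3.73 to 3.95 in controls, a difference of -0.02 (95% interval -0.22 to 0.17).

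Hmox1 encodes the inducible heme oxygenase, which cleaves heme to biliverdin, iron and carbon monoxide (chromosome 8, 75093618 to 75100593). Its arrays spanned 4.19 to 4.55 in TgCRND8 mice and 4.30 to 4.58 in controls at day 150, and the genotypes overlapped at every age. The differences were -0.07 at day 70, 0.06 at day 80 and -0.03 at day 150, with 95% intervals that stayed between -0.25 and 0.24. A difference beyond these bounds was outside the interval at each age. The gene was also dim, at a mean of 4.39.

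Gclc and Gclm encode the catalytic and the modifier subunit of glutamate-cysteine ligase, which carries out the rate-limiting step of glutathione synthesis. Gclc lies on chromosome 9 at 77754535 to 77794489 and Gclm on chromosome 3 at 122245487 to 122267215. The Gclc difference was -0.06 at day 70, -0.07 at day 80 and 0.04 at day 150, and that of Gclm was 0.06, -0.09 and 0.01 at the same ages. Neither subunit was separated by genotype at any age. At day 150 Gclc averaged 8.60 ± 0.11 in TgCRND8 mice and 8.56 ± 0.08 in controls (SD, n = 4 each; 95% interval of the difference -0.12 to 0.20). Gclm averaged 7.93 ± 0.03 in TgCRND8 mice and 7.92 ± 0.15 in controls at that age (SD, n = 4 each; 95% interval -0.16 to 0.18). Each gene has a second bright probe set. That of Gclc averaged 8.07 in TgCRND8 mice and 8.02 in controls at day 150, a difference of 0.05 (exact permutation p = 0.429, n = 4 each). That of Gclm averaged 6.58 in TgCRND8 mice and 6.61 in controls, a difference of -0.03 (exact permutation p = 0.629).

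Txnrd1 encodes cytosolic thioredoxin reductase, and Srxn1 encodes sulfiredoxin, which restores over-oxidised peroxiredoxins. Txnrd1 lies on chromosome 10 at 82833951 to 82897724 and Srxn1 on chromosome 2 at 152105524 to 152111376. The Txnrd1 differences were -0.01 at day 70 and -0.05 at day 80, with overlapping groups. Txnrd1 read 7.64, 7.54, 7.60 and 7.83 in TgCRND8 mice at day 150, against 7.53, 7.39, 7.35 and 7.67 in controls. The groups overlapped. The difference was 0.17 (95% interval -0.06 to 0.40; exact permutation p = 0.171, n = 4 each), and the 2 dimmer probe sets of the gene differed by 0.01 each at that age. With all 3 probe sets averaged the difference was 0.06, and the dimmest of these had group means of only 2.79 to 2.89. On the brightest probe set the difference was 0.11 without the TgCRND8 array numbered 4.

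Srxn1 had 4 probe sets. On the brightest its differences were -0.04 at day 70 and -0.06 at day 80, and it averaged 7.09 ± 0.08 in TgCRND8 mice and 6.99 ± 0.13 in controls at day 150 (SD, n = 4 each), a difference of 0.10 (95% interval -0.06 to 0.26). Without the control array of that age numbered 2 the difference was 0.03, and with the 4 probe sets averaged it was 0.04. On a dimmer probe set the genotypes lay in opposite orders at days 70 and 150. At day 70 it read 4.96, 5.06, 5.10 and 5.09 in TgCRND8 mice and 5.14, 5.16, 5.28 and 5.34 in controls, and all TgCRND8 arrays were lower (difference -0.18, exact permutation p = 0.0286, n = 4 each). At day 150 it read 5.13, 5.04, 5.18 and 5.20 in TgCRND8 mice and 5.10, 4.97, 4.99 and 4.98 in controls, and the TgCRND8 arrays were higher with a small overlap (difference 0.13, exact permutation p = 0.0571). On the remaining Srxn1 probe sets the groups overlapped at all ages. Their differences did not share that order, at 0.05 and 0.03 at day 70 and 0.06 and -0.12 at day 150. Over the 57 exact tests made, of 19 probe sets at 3 ages, the lowest adjusted p was 0.543. The smallest p that 1 exact permutation test can give is 0.0286. A single probe set therefore could not pass after adjustment over 57 tests, and the adjusted value decides nothing about it.

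Gpx1 encodes the selenium-dependent glutathione peroxidase that reduces hydrogen peroxide in the cytosol and mitochondria. At day 70 it read 9.24, 9.31, 9.38 and 9.35 in TgCRND8 mice, against 9.08, 9.34, 9.64 and 9.39 in controls. At day 80 the TgCRND8 arrays were widely spread, at 9.20, 9.26, 9.57 and 8.84, against 9.24, 9.32, 9.44 and 9.34 in controls. Both ages overlapped, with differences of -0.04 (95% interval -0.29 to 0.20) at day 70 and -0.12 (95% interval -0.36 to 0.12) at day 80. At day 150 the gene read 9.19, 9.54, 9.58 and 9.39 in TgCRND8 mice, against 9.04, 9.16, 9.19 and 9.20 in controls. Of the TgCRND8 arrays, 1 lay within the control range and the others above it. The mean was 9.42 ± 0.18 in TgCRND8 mice and 9.15 ± 0.07 in controls (SD, n = 4 each), a difference of 0.28 (95% interval 0.04 to 0.52; 1.21-fold), which did not pass (adjusted p = 0.999 by limma, unadjusted p = 0.0259; exact permutation p = 0.0571, n = 4 each). The change of the genotype difference, day 150 against the mean of days 70 and 80, was 0.36 (95% interval 0.06 to 0.65; adjusted p = 0.813 by limma).

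Mt1 and Mt2 encode the metallothioneins expressed throughout the body and lie close together on chromosome 8 of GRCm38.p6, Mt2 at 94172618 to 94173567 and Mt1 at 94178883 to 94180327. Both probe sets were bright, with mean signals of 10.7 for Mt1 and 9.51 for Mt2. Gpx1 lies on chromosome 9 at 108339080 to 108340342. The Mt1 window is set on a transcript start that lies downstream of the gene's first annotated base. The promoter windows of these 3 genes, from RefSeq on GRCm38.p6, cover 250 bases before to 50 bases after the annotated start and are shown because the 3 genes varied together between arrays of a group. Capitals mark matches to the core of the metal response element (TGCGCNC or TGCACNC) or of the antioxidant response element (TGACNNNGC), on either strand.
Mt2 promoter, chr8:94172368-94172667, plus strand: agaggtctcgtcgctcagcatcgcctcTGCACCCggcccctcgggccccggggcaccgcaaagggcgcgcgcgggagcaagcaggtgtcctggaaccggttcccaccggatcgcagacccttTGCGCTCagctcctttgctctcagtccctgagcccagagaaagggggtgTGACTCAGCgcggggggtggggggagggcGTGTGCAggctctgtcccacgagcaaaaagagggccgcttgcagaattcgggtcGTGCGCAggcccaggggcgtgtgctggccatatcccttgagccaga
Mt1 promoter, chr8:94178839-94179138, plus strand: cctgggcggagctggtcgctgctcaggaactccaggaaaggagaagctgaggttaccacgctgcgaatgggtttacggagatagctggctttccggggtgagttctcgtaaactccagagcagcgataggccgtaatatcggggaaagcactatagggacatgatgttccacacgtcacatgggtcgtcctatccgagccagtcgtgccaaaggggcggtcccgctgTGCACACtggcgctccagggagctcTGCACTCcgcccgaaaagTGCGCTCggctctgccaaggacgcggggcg
Gpx1 promoter, chr9:108338830-108339129, plus strand: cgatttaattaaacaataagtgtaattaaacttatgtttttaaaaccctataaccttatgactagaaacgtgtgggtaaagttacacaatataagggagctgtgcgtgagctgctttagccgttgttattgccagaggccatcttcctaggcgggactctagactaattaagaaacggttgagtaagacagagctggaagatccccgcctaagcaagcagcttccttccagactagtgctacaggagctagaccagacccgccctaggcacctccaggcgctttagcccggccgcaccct
The Mt2 window held 4 matches to the metal response element and the Mt1 window 3, while the Gpx1 window held no match to any of these letters. Of all 32851 promoter windows of this length, 25.7% held at least 1 metal response element match and 1.97% held 3 or more. The Mt2 window also held 1 antioxidant response element match, TGACTCAGC, which begins at position -79 from the start and contains the AP-1 site TGACTCA. At least 1 antioxidant response element match was found in 12.4% of all windows, and among the members in windows of Nfe2l2, Gclm, Txnrd1 (1 of its 3 windows), Srxn1 and Mt2. Gclm had 3 metal response element matches and Srxn1 had 1. The window of Nqo1 held no match to these letters, and Hmox1 and Gclc were not matched to a window. A match describes the letters and does not show a bound site.

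At day 70 Mt1 read 10.68, 10.57, 10.79 and 10.59 in TgCRND8 mice, against 10.50, 10.57, 10.87 and 10.62 in controls. At day 80 it read 10.55, 10.85, 10.995 and 10.72 in TgCRND8 mice, against 10.67, 10.87, 10.76 and 10.75 in controls. The genotypes overlapped at both ages, with differences of 0.01 (95% interval -0.17 to 0.20) at day 70 and 0.02 (95% interval -0.16 to 0.20) at day 80. At day 150 Mt1 read 10.84, 10.93, 10.87 and 10.83 in TgCRND8 mice, against 10.64, 10.62, 10.81 and 10.70 in controls. All 4 TgCRND8 arrays were above all 4 control arrays by a narrow gap. The mean was 10.87 ± 0.04 in TgCRND8 mice and 10.69 ± 0.09 in controls (SD, n = 4 each), a difference of 0.17 (95% interval -0.01 to 0.35; 1.13-fold), which did not pass (adjusted p = 0.999 by limma, unadjusted p = 0.060; exact permutation p = 0.0286, n = 4 each, the smallest possible). Groups did not overlap for 1 of 10 members at day 150 and for 3.0% of all genes.

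Mt2 was more spread than Mt1 between arrays of a group, with a within-group SD of 0.24 against 0.12. At day 70 it read 9.29, 9.39, 9.54 and 9.49 in TgCRND8 mice, against 9.12, 9.28, 9.86 and 9.48 in controls. At day 80 it read 9.33, 9.76, 10.03 and 9.16 in TgCRND8 mice, against 9.31, 9.71, 9.73 and 9.52 in controls. The means of the genotypes differed by -0.004 (95% interval -0.31 to 0.31) at day 70 and 0.004 (95% interval -0.31 to 0.32) at day 80. At day 150 Mt2 read 9.52, 9.63, 9.84 and 9.50 in TgCRND8 mice, against 9.31, 9.43, 9.54 and 9.45 in controls. The groups overlapped at all 3 ages. The day 150 difference was 0.19 (95% interval -0.12 to 0.50; exact permutation p = 0.0857, n = 4 each), and it was 0.12 without the TgCRND8 array numbered 3 of that age.

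By group mean the order of the Mt1 levels was TgCRND8 day 150 at 10.87, TgCRND8 day 80 at 10.78, control day 80 at 10.76, control day 150 at 10.69, TgCRND8 day 70 at 10.66 and control day 70 at 10.64, and the ranges of all neighbours overlapped. The second Mt1 probe set read 4.34 in TgCRND8 mice and 4.26 in controls at day 150, a difference of 0.08 (exact permutation p = 0.629, n = 4 each). The bright Mt1 probe set is of a type that can match transcripts of more than 1 gene by its name, and whether it also bound Mt2 RNA was not tested.

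Counts of members are set beside the same counts over all genes. At day 70, 1 of 10 members had an unadjusted p under 0.05, beside 3.25% of all genes, and 0% of all genes passed after adjustment. At day 80 it was 0 of 10 members beside 3.77% of all genes, again with 0% passing, and the genotypes did not overlap for 0 of 10 members and 1.25% of all genes. At day 150 it was 2 of 10 members beside 4.38% of all genes, while 0.121% of all genes, 22 of 18193, passed after adjustment. For the mean of the 3 ages, 0 of 10 members had an unadjusted p under 0.05 beside 3.16% of all genes, and 0.0385% of all genes passed. That comparison gave the narrowest intervals. For Hmox1, Gclc, Gclm and Srxn1 the 95% intervals of the mean genotype difference stayed between -0.12 and 0.09 log2. The comparisons at the 3 ages and their mean share arrays, so their values stand side by side and are not independent.

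**Figure D2:**
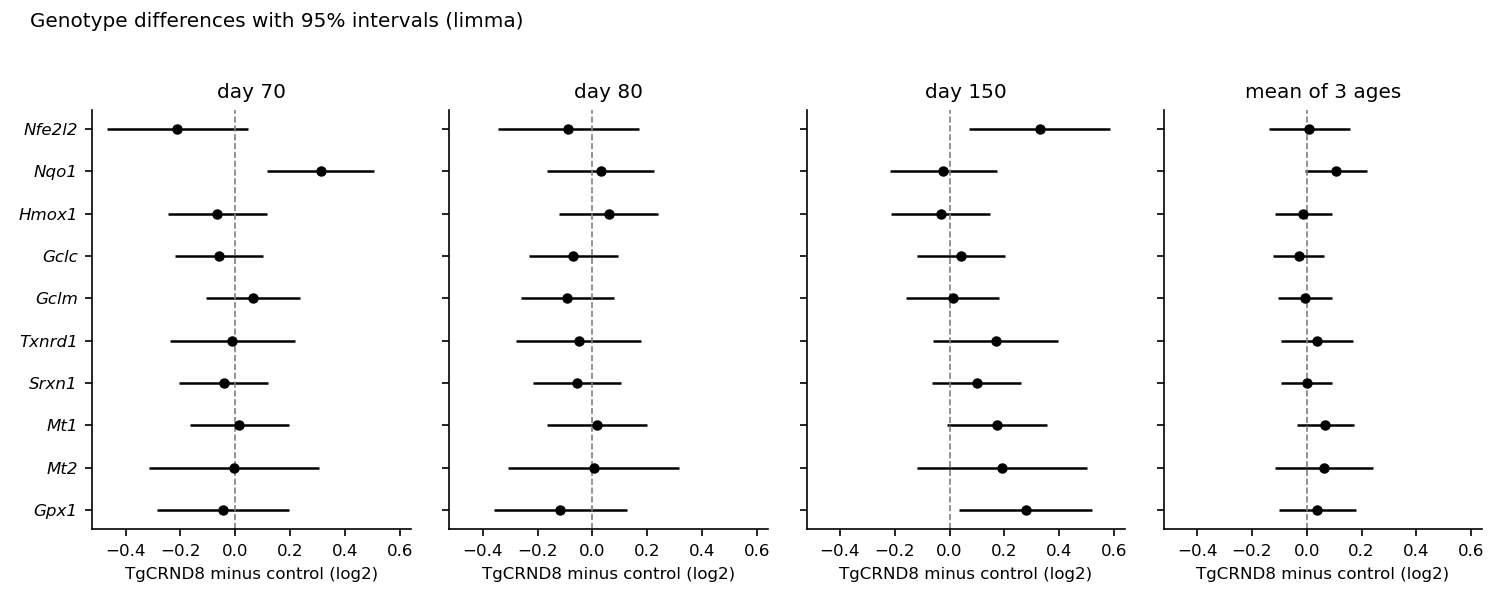
Genotype difference of each gene (TgCRND8 minus control, log2) at days 70, 80 and 150 and for the mean of the 3 ages; points are limma estimates and bars their 95% intervals. The intervals leave out 0 for Nqo1 at day 70 and for Nfe2l2 and Gpx1 at day 150, and no member passed after adjustment over all genes.

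Some markers of glia were higher in TgCRND8 mice at day 150, and their values stand beside those of the members. Of the microglial markers, 6 of 6 measured were higher in TgCRND8 mice and 2 rose by the test, Tyrobp and Cst7, the second by 1.59 log2. Their summed signal was 10.54 to 10.65 log2 in TgCRND8 mice at day 150 and 10.10 to 10.22 in controls. Of the 7 astrocyte markers 1 rose, Gfap, but only 2 of 7 were measured higher and their median difference was -0.002. Their summed signal was 13.35 to 13.45 in TgCRND8 mice and 13.32 to 13.40 in controls. Of the neuronal markers, 6 were measured and none passed, 5 of 6 being measured higher in TgCRND8 mice at that age. Of the 3 cerebellar markers 0 were measured higher at day 150, with a median difference of -0.24 and none passing. Gabra6 had an unadjusted p of 0.0448 and Cbln3 of 0.0232 by limma, where 4.38% of all genes were under 0.05. The summed signal of the 3 markers was 6.73 to 6.97 in TgCRND8 mice and 6.86 to 7.49 in controls at day 150. At day 80, 2 of 3 were measured higher in TgCRND8 mice, with a median difference of 0.15 and none passing. The part of these cells in the values of Nfe2l2, Gpx1 and the metallothioneins was not tested. In pieces of tissue, fewer cells of a type and less RNA per cell cannot be told apart.

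Within TgCRND8 mice, Mt1 was the only member whose arrays at day 150 were separated from those at day 70. It read 10.83 to 10.93 at day 150 and 10.57 to 10.79 at day 70, a difference of 0.21 (95% interval 0.03 to 0.39; adjusted p = 0.9998 by limma, unadjusted p = 0.0248). Groups did not overlap for 2.49% of all genes in that comparison, 2.64% had an unadjusted p under 0.05, beside 1 of 10 members, and 0.0879% passed. Set against day 80, all 10 members were measured higher in TgCRND8 mice at day 150, by 0.005 for Nqo1 to 0.24 for Nfe2l2, with a median of 0.08 beside -0.01 over all genes. None of the 10 had an unadjusted p under 0.05 there, beside 6.76% of all genes, and 0.0220% of all genes passed. Groups did not overlap for 0 of 10 members there, beside 2.59% of all genes. Low Xist marked 2 of the TgCRND8 arrays of day 80 and 0 of those of day 150. The TgCRND8 arrays of day 80 had the largest SD of the 6 groups for both Mt2 (0.39) and Gpx1 (0.30). Day 80 against day 70 in TgCRND8 mice gave 3 of 10 members higher, 0 with an unadjusted p under 0.05 beside 5.72% of all genes, 0 without overlap beside 2.04%, and 0% passing.

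Within controls, 5 of 10 members were measured higher at day 150 than at day 70 and 3 of 10 higher at day 150 than at day 80. Nfe2l2 averaged 5.30 ± 0.15 at day 150 and 5.61 ± 0.21 at day 70 (SD, n = 4 each), a difference of -0.30 (95% interval -0.56 to -0.05; adjusted p = 0.573 by limma, unadjusted p = 0.0226). Srxn1 differed by -0.17 between the same ages (95% interval -0.33 to -0.01; adjusted p = 0.622 by limma), and by -0.11 without the day 150 array numbered 2. With all probe sets of a gene averaged these age differences were -0.10 for Nfe2l2 and -0.07 for Srxn1. On the brightest probe sets these were 2 of 10 members with an unadjusted p under 0.05, beside 7.99% of all genes, of which 0.0220% passed. Groups did not overlap for 0 of 10 members, beside 4.58% of all genes. Gpx1 read 9.04 to 9.20 in controls at day 150 and 9.24 to 9.44 at day 80, without overlap, a difference of -0.19 (95% interval -0.43 to 0.05; adjusted p = 0.9996 by limma). Groups did not overlap for 2.41% of all genes there, 0 of 10 members had an unadjusted p under 0.05 beside 3.41% of all genes, and 0% passed. Low Xist marked 2 of the control arrays of day 80 and 0 of those of day 150. Day 80 against day 70 in controls gave 4 of 10 members higher and 0 with an unadjusted p under 0.05, beside 3.24% of all genes, 0 without overlap beside 2.19%, and 0% passing.

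The other genes of these pathways were read from 7 lists with 96 genes, of which 89 were measured, some on 2 lists. None of the 89 passed in any of the 11 comparisons. At day 150, 16 of 22 other NRF2 target genes were measured higher in TgCRND8 mice, with a median of 0.02 log2, as were 9 of 12 enzymes that remove superoxide and peroxide (median 0.04) and 9 of 11 heme and iron genes (median 0.07). The NRF2 regulators, among them Keap1 and Bach1, gave 3 of 11 higher (median -0.02). The thioredoxin and glutaredoxin system gave 5 of 12 (median -0.02), zinc handling with the other metallothioneins 8 of 11 (median 0.01), and glucocorticoid response genes 4 of 12 (median -0.01). Over all genes the median was 0.00, and 9122 of 18193 were higher. The number of genes with an unadjusted p under 0.05 by limma was 1 of 22 for the NRF2 targets, 1 of 11 for heme and iron, 1 of 12 for the glucocorticoid response and 0 for each of the other lists. Over all genes the share was 4.38% at that age. Between ages in TgCRND8 mice, 11 of 12 glucocorticoid response genes were higher at day 80 than at day 70 (median 0.23), beside 9185 of all 18193 genes. Of the 12, 6 had an unadjusted p under 0.05 by limma there, beside 5.72% of all genes. At day 150 against day 80, 1 of 12 was higher (median -0.14), beside 8707 of all genes. In controls these counts were 9 of 12 (median 0.08) and 5 of 12 (median -0.11), beside 8733 and 9026 of all genes. Of the 12, 3 and 2 had an unadjusted p under 0.05 by limma in controls, beside 3.24% and 3.41% of all genes. For heme and iron at day 150 against day 80, 7 of 11 were higher in TgCRND8 mice (median 0.12) and 4 of 11 in controls (median -0.02). Of these, 4 and 1 had an unadjusted p under 0.05 by limma, beside 6.76% and 3.41% of all genes.

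The genes with the smallest p of each list for the mean of the 3 ages did not pass. Ddit4, a stress-induced inhibitor of mTOR signalling that glucocorticoids also induce, averaged 7.47 in TgCRND8 mice and 7.70 in controls, a difference of -0.23 (95% interval -0.35 to -0.12; adjusted p = 0.295 by limma, unadjusted p = 0.000324). Tfrc, the transferrin receptor for iron uptake, averaged 8.95 in TgCRND8 mice and 8.79 in controls, a difference of 0.16 (95% interval 0.07 to 0.24; adjusted p = 0.567 by limma). Idh1, the cytosolic NADPH-making isocitrate dehydrogenase, differed by 0.11, and Slc7a11, the cystine transporter, by 0.11. Gpx3, the secreted glutathione peroxidase, differed by 0.14, and Sod1, the copper and zinc superoxide dismutase, by -0.04. Btrc and Cul3, ubiquitin ligase components that turn over NRF2, differed by -0.05 and -0.04. Differences of the remaining named genes were 0.09 for Glrx3, -0.07 for Txnrd3, -0.07 for the vesicular zinc transporter Slc30a3, 0.07 for the zinc importer Slc39a8, 0.07 for the biliverdin reductase Blvrb and -0.14 for the clock gene Per1, each with an adjusted p of 0.9996 by limma.

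**Figure D3:**
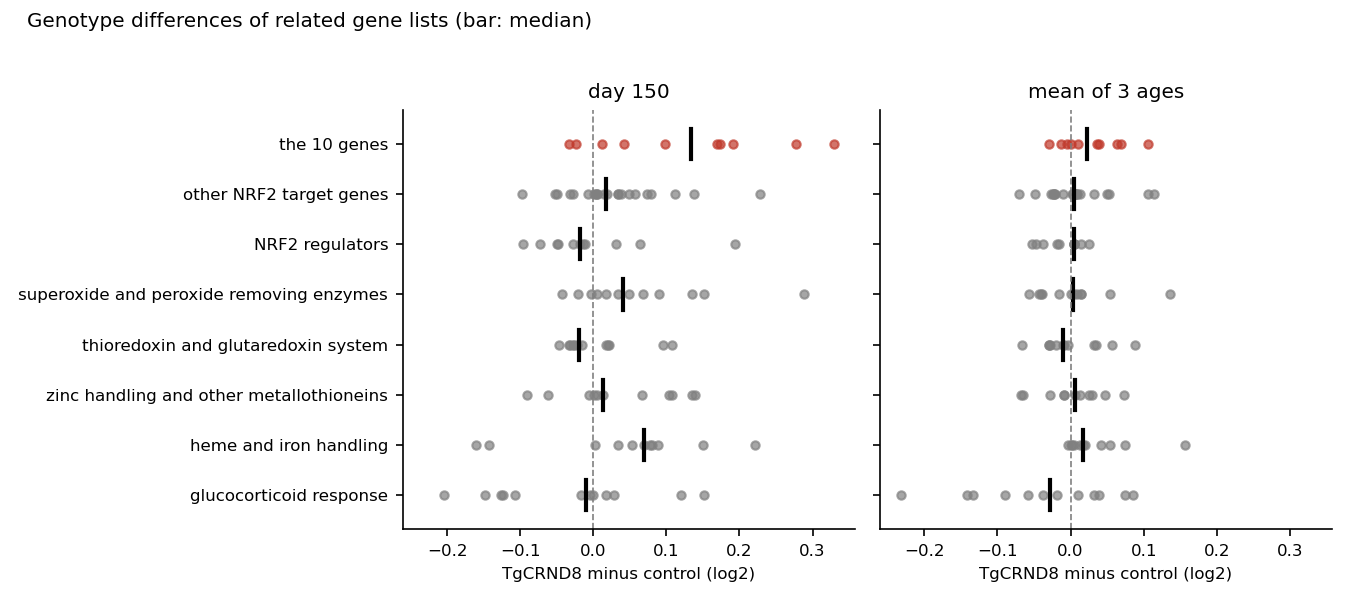
Genotype difference (TgCRND8 minus control, log2) of the 10 genes and of each gene on the 7 related lists at day 150 and for the mean of the 3 ages; each point is a gene and each black bar the median of its list. Medians of the 7 lists lie between -0.02 and 0.07 at day 150, and that of the 10 genes at 0.13.

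Within groups, the metallothioneins and Gpx1 varied together. After the 6 group means were removed, Mt2 correlated with Gpx1 over the 24 arrays at r = 0.89 and rho = 0.87, each with the smallest p that 100000 permutations within groups can give (1e-05; adjusted p = 0.00045 over 45 pairs of members). Without the 2 arrays farthest from the median of Mt2 it was 0.82. Mt1 correlated with Mt2 at r = 0.81 (permutation p = 0.00053, adjusted p = 0.0119) and rho = 0.77 (permutation p = 0.0005), and without the 2 farthest arrays at r = 0.68. The adjusted p of this pair was 0.0513 without the TgCRND8 array of day 80 numbered 3, at r = 0.75, and 0.0949 without the control array of day 70 with that number, also at r = 0.75. These 2 of 45 pairs passed by both measures. With the replicate number of the labels as a block neither passed, at r = 0.76 for Mt2 with Gpx1 (adjusted permutation p = 0.0776) and r = 0.59 for Mt1 with Mt2 (adjusted permutation p = 0.148). With probe sets averaged Mt1 with Mt2 did not pass either, at r = 0.66 (adjusted permutation p = 0.117). That average gives equal weight to the dim second Mt1 probe set, whose group means were 4.15 to 4.34. Gclc ran the other way, with r = -0.54 against Mt2 (adjusted permutation p = 0.0597) and r = -0.53 against Gpx1 (adjusted permutation p = 0.0592), which passed by rho alone (-0.58 with adjusted p = 0.0467 and -0.64 with adjusted p = 0.0199). The same held for Mt1 with Gpx1, at r = 0.63 (adjusted permutation p = 0.194) and rho = 0.66 (adjusted permutation p = 0.0233). Nfe2l2 correlated with Nqo1 at r = 0.15 (permutation p = 0.488) and with Gclm at r = -0.27 (permutation p = 0.217).

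**Figure D4:**
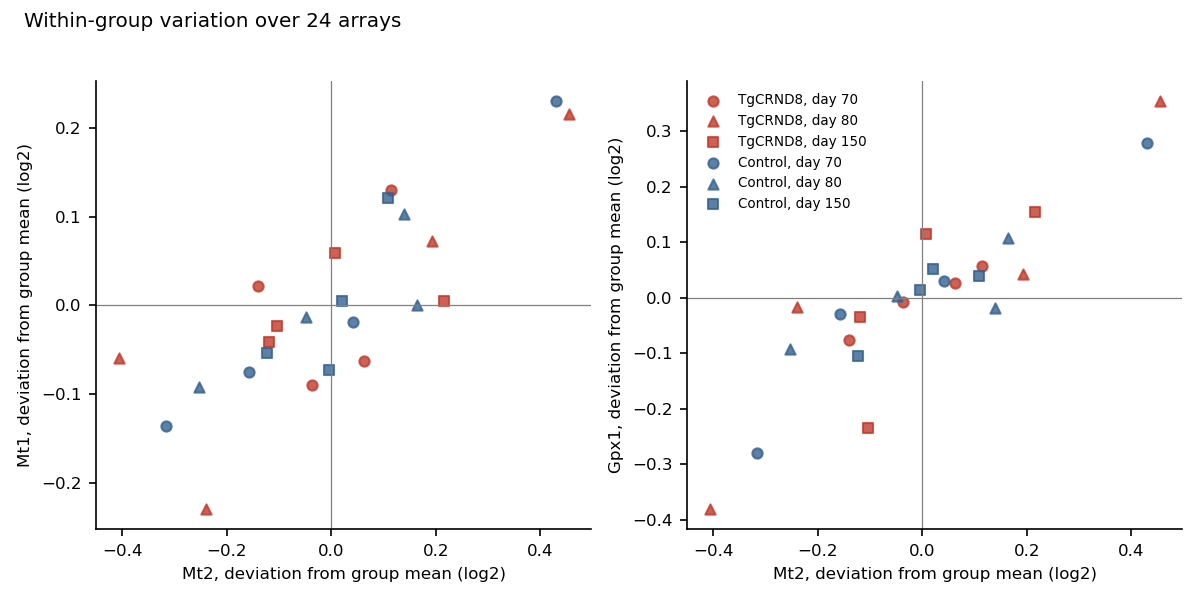
Deviation of Mt1 (left) and Gpx1 (right) from its group mean, against that of Mt2 on the same array (log2); each point is 1 of 24 arrays, with genotype in colour and age in shape. Points run from lower left to upper right in both panels, and the farthest points at upper right are 1 TgCRND8 array of day 80 and 1 control array of day 70.

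The same arrays differed in many other genes. The first principal component of the deviations from group means held 25.3% of their variance, and its correlation with the members was 0.83 for Mt2, 0.75 for Gpx1, 0.63 for Mt1, 0.49 for Nqo1, -0.68 for Gclc and -0.68 for Txnrd1. Of 18183 other genes, 231 correlated with the mean of Mt1 and Mt2 at over 0.8. The 5 most alike over the 24 arrays were Tle5 (r = 0.920), Mgst1 (0.919), Fam120aos (0.915), Mrpl17 (0.904) and Acyp1 (0.898). In 6 of 6 groups the array numbered 3 was the highest for Mt2, in 5 for Gpx1 and in 4 for Mt1, and the array numbered 1 was the lowest in 4, 5 and 3 groups. With the first component as a covariate the correlation of Mt2 with Gpx1 was 0.72 and that of Mt1 with Mt2 was 0.67 (adjusted permutation p = 0.0493 each). What the number stands for is not given in the labels.

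As facts of the whole series, the 3' minus 5' signal of the Gapdh control probe sets was -0.13 to -0.03, and that of the actin probe sets 0.66 to 0.88. Xist was low on 5 arrays, 2 of TgCRND8 mice at day 80, 1 of controls at day 70 and 2 of controls at day 80. It read 3.07 to 3.50 on these and 9.36 to 9.85 on all others. The low arrays numbered 0 in both groups of day 150, so comparisons of day 150 with day 80 set groups of unlike Xist level side by side. No member passed with Xist as a covariate. Forebrain neuron markers had mean signals of 7.23 to 11.7, and the 3 cerebellar markers 3.0 to 6.69, the brightest being Cbln1.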

How the data were processed

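Total forebrain RNA from 24 mice was labelled as biotin cRNA by in vitro transcription and hybridised to Affymetrix mouse arrays, per the labels' protocols. The deposited table holds log2 signals, 1 per probe set and array, as the authors made them; their background correction, summary and normalization are not given in the sources used here, so whether dim signals such as those of Nqo1 and Hmox1 were compressed is not known. Of 45101 probe sets, 64 were controls, 34945 had 1 gene symbol in the platform annotation used, 932 several and 9160 none. The 18193 genes tested each had their brightest single-symbol probe set. Groups and replicate numbers came from the sample titles.

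All arrays entered 1 limma fit with 6 group means (18 residual and 7.47 prior degrees of freedom), 11 contrasts and Benjamini-Hochberg adjustment over all genes. Genotype differences at each age were also tested by exact permutation of 8 arrays. Member pairs were correlated after group means were removed, with 100000 permutations within groups. With 4 arrays in each group, the standard error of a difference at 1 age was 0.0977 log2 in the median gene. The labels call the arrays biological replicates. Summed marker signals are log2 of the sum of linear signals.

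The members, lists and tests were chosen with earlier results of these data known. Named list genes are the 2 with the smallest p for the mean of 3 ages in each list. Microglia, astrocyte, neuron and cerebellum markers are reported; those of oligodendrocytes, endothelium, blood, choroid plexus, meninges and olfactory bulb gave 0 passing values of 100 between genotypes, with 3 at an unadjusted p under 0.05 (limma). Replicate numbers were not used to pair arrays in the main fit. Of 60 same-number pairs of arrays, 35 correlated over 0.1 in their deviations (-0.37 to 0.61). The median correlation was 0.14 for pairs of the same number and -0.04 for pairs of other numbers. Alternatives were quantile normalization, median centring, the dimmest 40% of genes left out, the mean of all probe sets, trended and robust empirical Bayes, replicate block, Xist covariate and each array left out; the first principal component as covariate was chosen after seeing the data. The pipeline was tested on simulated data. Software used was limma 3.58.1 in R 4.3.3, with Python 3.11.15, numpy 2.4.6, pandas 2.3.3 and matplotlib 3.10.9.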

Additional observations from a re-analysis of the deposited data

Results flagged for a closer look

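Nfe2l2 had opposite orders of genotype at day 70 and day 150 on its brightest probe set, and not on its dim second probe set. The values here are those of the brightest. All 4 TgCRND8 arrays of day 70 lay below the control mean of that age, and all 4 of day 150 lay above the control mean of their age, and the genotype difference at day 150 exceeded that at day 70 by 0.54 log2. This day 150 against day 70 difference was not tested itself. The contrast of day 150 with the mean of days 70 and 80, which was tested, did not pass (limma, Benjamini-Hochberg adjusted p = 0.732). Single arrays stood far from the other 3 of their group in 2 of 60 groups of 4 values. For Srxn1 the TgCRND8 array of day 80 numbered 3 was highest, with a gap to its neighbour of 0.912 of the group's range. For Nqo1 the control array of day 80 numbered 3 was highest, with a gap of 0.853. Chance gives about 1 in 20 such groups.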

How the results depend on the processing

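No member passed under any alternative run, in 858 values (lowest adjusted p = 0.343 by limma) or with 1 array left out in 1200 values (lowest 0.345). Signs differed in 33 and 111 of these, at sizes up to 0.04 and 0.15. Nfe2l2 in controls, day 80 against day 70, was 0.00678 with all probe sets averaged, against -0.13. Nqo1 and Hmox1 were below the dim limit of 4.52 and have no value there. Of genes passing, the mean of 3 ages had 7, or 4 after median centring and 13 with the first component; the change of the difference had 2, or 1 without dim genes, 4 with the replicate block and 5 with the first component. TgCRND8 day 150 against day 70 had 16, or 9 without dim genes and 9 with probe sets averaged; day 150 against day 80 had 4, or 7, 1, 2, 9 and 13 under median centring, without dim genes, with probe sets averaged, replicate block and first component. Control day 150 against day 70 had 4, or 2 under quantile normalization, 7 after centring, 7 with the replicate block, 2 with Xist and 8 with the first component. Leaving out 1 array gave 0 to 2 genes at day 80, 12 to 20 at day 150 (22 with all), 4 to 10 for the mean, 0 to 2, 8 to 14 and 1 to 7 in TgCRND8 mice for day 80 against 70, 150 against 70 and 150 against 80, and 0 to 3 and 0 to 1 in controls for day 150 against 70 and 80. The causes were not tested.

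Mt1 with Mt2 was r = 0.66 with probe sets averaged (adjusted permutation p = 0.117) and 0.59 with the replicate block (adjusted permutation p = 0.148), and 0.751 to 0.856 with 1 array left out. Mt2 with Gpx1 was 0.76 with the replicate block (adjusted permutation p = 0.0776). The block changed no member's call, and 12 of 24 arrays correlated best with an array of their own number. That is more than an even spread over the 4 replicate numbers would give.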
